A study of Homo sapiens with 6 samples.

Results

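The 10 genes described here, *CCN1*, *CCN2*, *ANKRD1*, *AMOTL1*, *AMOTL2*, *AXL*, *AJUBA*, *CRIM1*, *F3* and *TGFB2*, are direct targets of the transcriptional coactivators YAP and TAZ and were taken from a fixed list by gene name. All 10 are among the 58735 genes listed by the deposited tables, where *CCN1* and *CCN2* may also be known as *CYR61* and *CTGF*. Expression was measured by RNA-seq in the neuroblastoma line SK-N-AS, which is human and long established. In siPrp19 libraries, small interfering RNA (siRNA) had been transfected against the pre-mRNA splicing factor Prp19, and in NC libraries a control siRNA with no intended target, with 3 libraries each. Harvest was at 72 h per the labels and earlier per the study's methods. All libraries come from this 1 line, and the knockdown was transient.

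YAP and TAZ have no DNA-binding domain of their own and reach DNA through the TEAD transcription factors. When the Hippo kinases are active, YAP and TAZ are phosphorylated and kept out of the nucleus. When the kinases are inactive, YAP and TAZ enter the nucleus and switch on genes for matrix-associated signals (*CCN1*, *CCN2*, *TGFB2*), receptors and membrane proteins (*AXL*, *F3*, *CRIM1*) and a nuclear cofactor (*ANKRD1*). They also switch on genes whose products act back on the pathway (*AMOTL1*, *AMOTL2*, *AJUBA*). In neuroblastoma, high YAP activity is known from cells of the mesenchymal type and from relapsed tumors.

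Libraries are called here by the names of the deposited value columns, NCa, NCb and NCc and siPrp19a, siPrp19b and siPrp19c. For 2 of the 6 libraries these names contradict the sample labels. Column NCb is recorded under a sample labelled siPrp19, and column siPrp19b under a sample labelled NC. The comparison by column name is given first, with 3 libraries against 3. The same 6 libraries grouped by sample label, and the 4 libraries for which name and label state the same group, are given beside it. The target of the siRNA was examined first. *PRPF19*, which encodes Prp19, was at 83.0, 83.1 and 93.0 FPKM (fragment counts scaled to exon length and library size) in NCa, NCb and NCc. It was at 19.6, 19.1 and 18.5 FPKM in siPrp19a, siPrp19b and siPrp19c. *PRPF19* thus followed the column names in all 6 libraries and went against the sample label in NCb and siPrp19b.

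Between 14887132 and 19977811 reads per library could be recovered from the FPKM values, and 13718 genes had a mean of at least 1 FPKM and were tested. NCa and NCb were close to each other, with a chi-square per degree of freedom of 1.75, as were siPrp19b and siPrp19c at 2.85, against 21.5 to 56.5 for the 13 other pairs of libraries. Sampling noise alone would give about 1, and no libraries were merged. The paper's methods state that biological replicates were made 3 times per sample. Neither these methods nor the labels say whether the close libraries came from separate cultures. If they did not, the p-values by column name, with 3 libraries against 3, are too small. The 4-library comparison leaves out a library of each close pair. Mitochondrial genes took 8.29% of the reads in siPrp19a and 5.15% to 5.49% in the others. Of 8 markers of adrenergic neuroblastoma cells, 7 were high enough to be tested, with summed levels of 315 to 332 FPKM in the NC columns and 242 to 252 FPKM in the siPrp19 columns. *TH*, the enzyme that starts catecholamine synthesis, was at 0.312 to 0.662 FPKM. Of 7 mesenchymal markers 6 were tested, with sums of 255 to 292 FPKM against 206 to 235 FPKM. Among markers of other cell types, 4 of 5 for fibroblasts were tested (671 to 680 against 528 to 607 FPKM) with *COL1A2* at no more than 3 reads. For blood 1 of 3 was tested (25.7 to 31.4 against 17.9 to 21.2 FPKM, *HBB* at 0), for epithelium 2 of 4 (44.8 to 60.7 against 45.2 to 48.7 FPKM, *CDH1* at no more than 2 reads) and for endothelium 0 of 3 (0.701 to 0.924 against 0.650 to 1.05 FPKM, *CDH5* at 0). The adrenergic, mesenchymal, fibroblast and blood sums were lower in every siPrp19 column than in every NC column, and their part in the results was not tested. In these bulk samples, fewer cells of a type and less RNA per cell cannot be told apart.

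By column name, 4 of the 10 targets fell after siPrp19, and none rose. They were *CCN1*, *CCN2*, *ANKRD1* and *CRIM1*, with mean levels 23.2%, 47.0%, 65.2% and 30.7% lower than in the NC columns. Another 5 were tested and did not pass, and *TGFB2* was too low to be tested across genes. The 4 are 44.4% of the 9 targets tested, while 7.94% of all tested genes passed in either direction and 5.37% passed with lower and 2.57% with higher levels (limma, adjusted p below 0.05). The targets were chosen with earlier results of these data known, so this share is not independent evidence. The median log2 fold change of the 9 was -0.27, against -0.02 over all tested genes. It lay below 0 for 7 of the 9, as it did for 54% of all genes. Most calls did not hold in the other groupings. In the 4 libraries with matching name and label 0 of 9 passed by limma, where 0.0146% of all genes did, while 4 of 9 had an unadjusted p below 0.05, as did 12.3% of all genes. With voom, limma's model for read counts, 3 of 9 passed by column name (*CCN2*, *ANKRD1* and *CRIM1*), against 9.99% of all genes. In the 4 libraries 1 of 9 passed by voom (*ANKRD1*), against 1.94% of all genes. Grouped by sample label, 0 of 9 passed by limma or voom, 0 had an unadjusted p below 0.05, and 0% of all genes passed. *PRPF19* itself was at -0.74 by sample label and did not pass (limma), so that grouping cannot decide whether the targets changed.

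**Figure D1:**
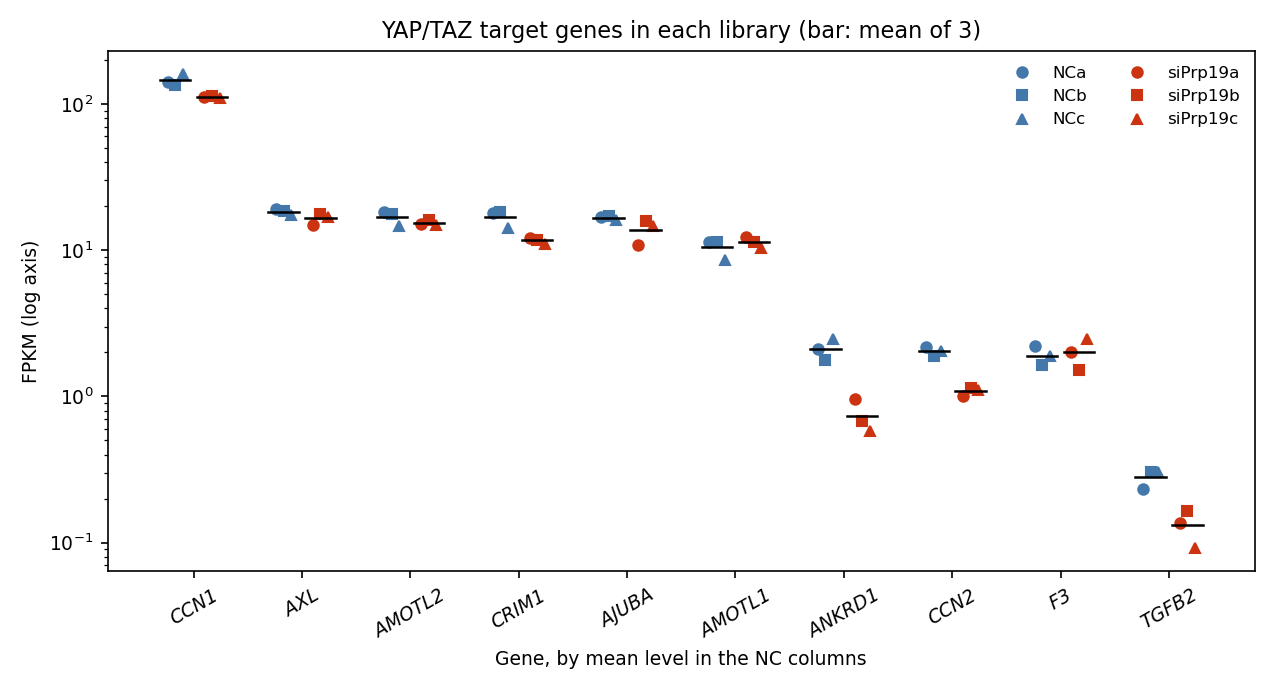
Level of each target in each library in FPKM on a log axis, genes ordered by their mean in the NC columns; points are single libraries by column name and bars are means of 3. The siPrp19 points lie below all NC points for *CCN1*, *CRIM1*, *AJUBA*, *ANKRD1*, *CCN2* and *TGFB2*.

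Levels spanned a wide range in the NC columns. *CCN1* was highest at 145 ± 12.9 FPKM (SD, n = 3). Over the NC and siPrp19 columns together, it made up 59.7% to 67.3% of the summed level of the 10 genes in a library. *AXL*, *AMOTL2*, *CRIM1* and *AJUBA* followed between 14.1 and 19.0 FPKM, and the ranges of neighbours in this order overlapped. *AMOTL1* lay below them at 8.61 to 11.4 FPKM. *ANKRD1*, *CCN2* and *F3* were between 1.63 and 2.47 FPKM, with overlapping ranges, and *TGFB2* was lowest at 0.233 to 0.305 FPKM. In the siPrp19 columns *F3* at 1.52 to 2.47 FPKM no longer overlapped *CCN2* at 1.00 to 1.14 FPKM, and *CCN2* no longer overlapped *ANKRD1* at 0.578 to 0.960 FPKM.

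The promoters of *CCN2* and *ANKRD1* are shown because these genes had the largest changes among the tested targets and hold more than 1 copy of the TEAD letters. RefSeq windows (GRCh38.p14) from 250 bases before to 50 bases after a gene start were found for 8 of the 10 targets, with 11 windows in all. *CCN1* and *CRIM1* had no entry. The windows were searched on both strands for GGAATG, the core bound by TEAD factors, which reads CATTCC on the other strand. It occurred in 6 of the 11 windows, each of a different gene, and in 14% of the 35116 windows of all genes. Because the list holds targets that YAP and TAZ reach through TEAD factors, a higher share there is not independent evidence. *CCN2* held 3 copies, at 169, 104 and 95 bases before the start, where 0.128% of all windows and 0.0436% of those of tested genes held 3 or more. *ANKRD1* held 2 copies, at 220 and 128 bases before the start, where 1.37% of all windows and 0.843% of those of tested genes held 2 or more. With the longer letters ACATTCC, 3 of the 11 windows held a match (*AMOTL2*, *CCN2* and *TGFB2*), with 1 copy in *CCN2* and 0 in *ANKRD1*. In the bases before the start of *CCN2* (chr6:131951373-131951622, minus strand) and *ANKRD1* (chr10:90921088-90921337, minus strand), written 5′ to 3′ along the gene, capitals mark GGAATG or CATTCC.
CCN2: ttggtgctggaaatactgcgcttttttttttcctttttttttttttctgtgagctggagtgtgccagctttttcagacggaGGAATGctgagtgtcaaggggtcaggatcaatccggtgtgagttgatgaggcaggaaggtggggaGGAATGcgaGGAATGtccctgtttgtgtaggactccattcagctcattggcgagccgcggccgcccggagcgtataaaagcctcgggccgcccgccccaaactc
ANKRD1: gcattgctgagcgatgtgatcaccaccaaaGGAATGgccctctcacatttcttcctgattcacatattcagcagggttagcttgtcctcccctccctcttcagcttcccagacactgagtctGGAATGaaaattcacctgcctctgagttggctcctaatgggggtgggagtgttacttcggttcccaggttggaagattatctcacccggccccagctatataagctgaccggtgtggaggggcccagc

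The other 4 matches were single copies, shown with 10 bases on each side to compare them with those of *CCN2* and *ANKRD1*. They lay 185 bases before the start for *TGFB2* (chr1:218345141-218345166, plus strand), 69 for *AMOTL2* (chr3:134374501-134374526, minus strand), 59 for *AJUBA* (chr14:22976886-22976911, minus strand) and 212 for *AXL* (chr19:41226533-41226558, plus strand). Capitals mark the same letters, again along the gene.
TGFB2: tcagggcgcaCATTCCacctccttcc
AMOTL2: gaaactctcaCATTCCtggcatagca
AJUBA: gaagttggctGGAATGaagccaaagc
AXL: gactttgcacCATTCCactccctccg
*AMOTL2*, *AJUBA* and *AXL* have a pair of windows each, and 1 of the pair held the match. The windows of *AMOTL1* and *F3* held none. Distances are from the RefSeq start of the window. For *AMOTL2*, *AJUBA* and *AXL* the start of the matched window and the match lie inside the gene span given below. For *TGFB2* both lie before its gene span. For *ANKRD1* the RefSeq start and the match at 128 bases lie inside the gene span, and the match at 220 bases lies before it. TGANTCA, the core bound by AP-1 factors, which often share enhancers with TEAD factors, occurred 2 times in the window of *F3* and 1 time in that of *ANKRD1*, and in 7.71% of all windows. Genes with the TEAD letters thus included *CCN2* and *ANKRD1*, which fell, and *AXL*, *AMOTL2* and *AJUBA*, which did not pass the test. A match is a description of these letters only.

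**Figure D2:**
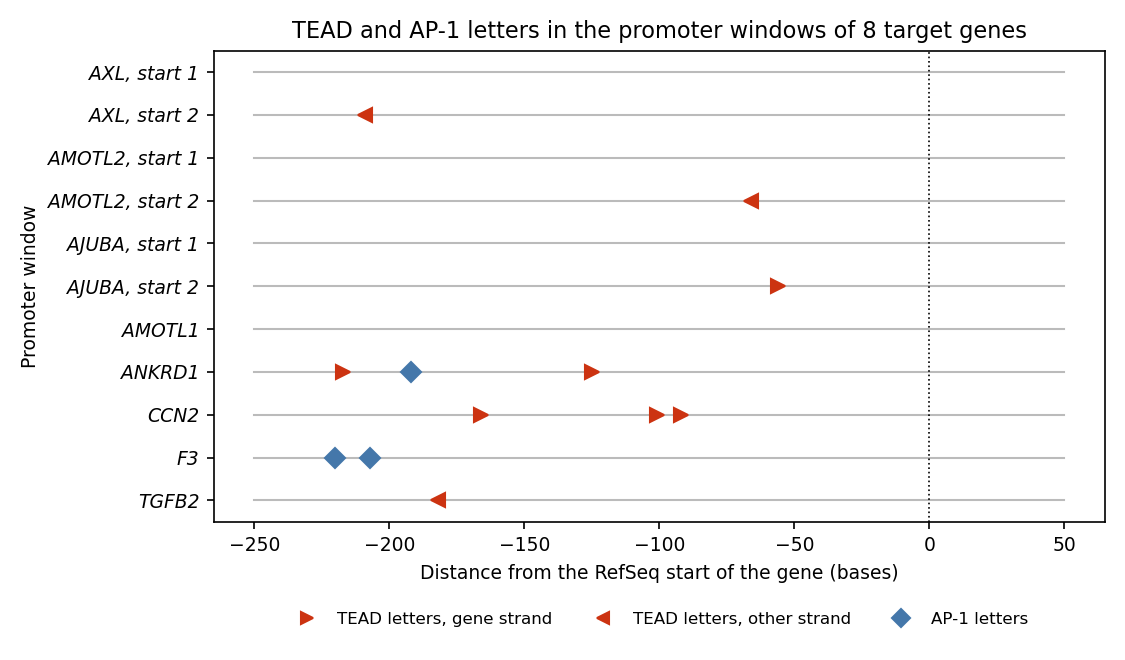
Positions of the TEAD letters (red triangles pointing along the strand) and AP-1 letters (blue diamonds) in 11 promoter windows of 8 targets, against the distance in bases from the RefSeq start. *CCN2* holds 3 TEAD matches and *ANKRD1* holds 2, while *AMOTL1* holds none of either kind.

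The matrix-associated signals were examined first. *CCN1* (ENSG00000142871; chromosome 1, 85580761 to 85583962, plus strand, GRCh38) encodes a secreted matricellular protein that binds integrins and promotes adhesion and migration. *CCN1* was at 141, 134 and 159 FPKM in NCa, NCb and NCc and at 111, 113 and 109 FPKM in siPrp19a, siPrp19b and siPrp19c. All siPrp19 columns were lower than all NC columns. The means were 145 ± 12.9 and 111 ± 1.94 FPKM (SD, n = 3). This gave a log2 fold change of -0.37 ± 0.09 (SE, adjusted p = 0.0494 by limma). The p is just inside the threshold. With voom on the recovered reads it was -0.30 (adjusted p = 0.0538), and with quantile normalization it was -0.18 (adjusted p = 0.133 by limma). The 4 libraries gave -0.44 (adjusted p = 0.358) and the sample labels -0.21 (adjusted p = 1.00, limma). Between 4309 and 6730 reads stood behind each value.

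*CCN2* (ENSG00000118523; chromosome 6, 131948176 to 131951373, minus strand) encodes CTGF, a related matricellular protein and a widely used readout of YAP. It was at 2.19, 1.88 and 2.04 FPKM in NCa, NCb and NCc and at 1.00, 1.14 and 1.10 FPKM in siPrp19a, siPrp19b and siPrp19c. The groups did not overlap. Means were 2.04 ± 0.151 and 1.08 ± 0.0711 FPKM (SD, n = 3), with a log2 fold change of -0.55 ± 0.10 (SE, adjusted p = 0.0200 by limma). Because 1 was added to each FPKM before the logarithm, this understates the change, and voom gave -0.83 (adjusted p = 0.0219). In the 4 libraries, the change was -0.60 (adjusted p = 0.216), and by sample label it was -0.26 (adjusted p = 1.00, limma). The values rest on 37 to 82 reads, and *AL133346.1* overlaps the gene on the opposite strand, whose reads could be included because the strand setting of the counting was not given. *CCN2* is also a gene that the study chose to follow in these cells, so its direction is not independent evidence.

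*TGFB2* (ENSG00000092969; chromosome 1, 218346235 to 218444619, plus strand) encodes the secreted growth factor TGF-β2. It was barely detected, with 0.233, 0.303 and 0.305 FPKM in the NC columns and 0.135, 0.165 and 0.0925 FPKM in the siPrp19 columns. The mean was 53.3% lower and the groups did not overlap, but there were only 10 to 27 reads per library. A two-sided exact permutation test gave p = 0.1, the smallest value that 3 libraries against 3 allow, and p = 0.4 by sample label.

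*ANKRD1* (ENSG00000148677; chromosome 10, 90912096 to 90921276, minus strand) encodes an ankyrin repeat protein that acts as a nuclear cofactor and is also found in the sarcomere of muscle. It was at 2.11, 1.78 and 2.47 FPKM in NCa, NCb and NCc and at 0.960, 0.674 and 0.578 FPKM in siPrp19a, siPrp19b and siPrp19c. The groups were clearly apart. The means were 2.12 ± 0.343 and 0.737 ± 0.199 FPKM (SD, n = 3). The log2 fold change was -0.84 ± 0.14 (SE, adjusted p = 0.0151 by limma), and voom gave -1.48 (adjusted p = 0.00724), a level 2.79-fold lower. In the 4 libraries the change was -0.90 by limma (adjusted p = 0.148) and -1.55 by voom (adjusted p = 0.0465). By sample label, it was -0.36 (adjusted p = 1.00, limma). Counting error is large here, with 22 to 84 reads per library.

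Of the membrane proteins, *CRIM1* fell, and *AXL* and *F3* did not pass the test. *CRIM1* (ENSG00000150938; chromosome 2, 36355926 to 36551135, plus strand) encodes a transmembrane protein with cysteine-rich repeats that binds bone morphogenetic proteins. It was at 18.1, 18.4 and 14.1 FPKM in NCa, NCb and NCc and at 12.2, 11.8 and 11.1 FPKM in siPrp19a, siPrp19b and siPrp19c. NCc was the lowest of the NC columns and still above all siPrp19 columns. The log2 fold change was -0.49 ± 0.11 (SE, adjusted p = 0.0420 by limma), -0.44 with voom (adjusted p = 0.0427), -0.43 in the 4 libraries (adjusted p = 0.359) and -0.09 by sample label (adjusted p = 1.00). *FEZ2* overlaps *CRIM1* on the opposite strand.

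*AXL* (ENSG00000167601; chromosome 19, 41219203 to 41261766, plus strand) encodes a receptor tyrosine kinase for GAS6 that is linked to invasion. It was at 19.0, 18.7 and 17.4 FPKM in the NC columns and at 14.9, 17.8 and 16.9 FPKM in the siPrp19 columns. The groups overlapped, and siPrp19a, the library with the high mitochondrial share, was lowest. The log2 fold change was -0.15 with a 95% confidence interval of -0.35 to 0.05 (adjusted p = 0.341 by limma), and -0.08 without siPrp19a.

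*F3* (ENSG00000117525; chromosome 1, 94529225 to 94541800, minus strand) encodes tissue factor, the cell-surface receptor that starts blood coagulation. It was at 2.20, 1.63 and 1.88 FPKM in the NC columns and at 2.03, 1.52 and 2.47 FPKM in the siPrp19 columns. The groups were intermixed, with the highest value in siPrp19c and the lowest in siPrp19b. The log2 fold change was 0.04 with an interval of -0.30 to 0.38 (adjusted p = 0.894 by limma), from 69 to 149 reads.

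None of the 3 targets that act back on the pathway passed the test. *AJUBA* (ENSG00000129474; chromosome 14, 22971174 to 22982642, minus strand) encodes a LIM domain protein that binds and inhibits the LATS kinases. It was at 17, 17 and 16 FPKM in NCa, NCb and NCc and at 10.9, 15.9 and 14.6 FPKM in siPrp19a, siPrp19b and siPrp19c. All siPrp19 columns were lower, but siPrp19b was only just below NCc, and siPrp19a stood apart. With an interval of -0.58 to 0.04, the log2 fold change was -0.27 (adjusted p = 0.272 by limma), and it was -0.12 without siPrp19a.

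*AMOTL1* (ENSG00000166025; chromosome 11, 94706431 to 94876753, plus strand) and *AMOTL2* (ENSG00000114019; chromosome 3, 134355874 to 134375479, minus strand) encode angiomotin-like proteins that hold YAP at cell junctions and in the cytoplasm. *AMOTL1* was at 11.3, 11.4 and 8.61 FPKM in the NC columns and at 12.2, 11.4 and 10.3 FPKM in the siPrp19 columns. *AMOTL2* was at 18.3, 17.6 and 14.7 FPKM in the NC columns and at 15.0, 16.2 and 14.8 FPKM in the siPrp19 columns. For both genes the groups overlapped and NCc was the lowest of all 6 libraries. The log2 fold change was 0.12 for *AMOTL1* (interval -0.16 to 0.40, adjusted p = 0.614) and -0.12 for *AMOTL2* (interval -0.35 to 0.10, adjusted p = 0.480), both by limma. Without NCc it was -0.01 for *AMOTL1* and -0.22 for *AMOTL2*.

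**Figure D3:**
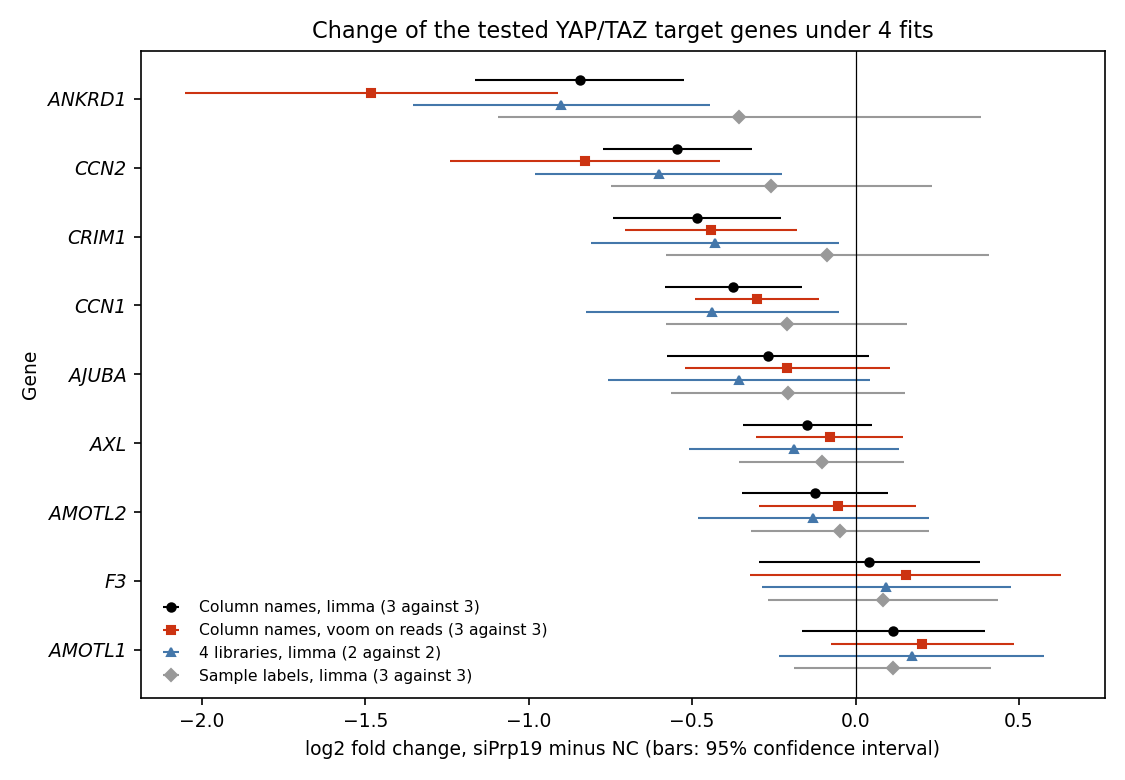
Log2 fold change (siPrp19 minus NC) of the 9 tested targets with 95% confidence intervals, by column name with limma and with voom, in the 4 libraries with matching name and label, and by sample label. *ANKRD1*, *CCN2*, *CRIM1* and *CCN1* lie below 0 in each of the 4 fits, with intervals that reach past 0 only by sample label.

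Across the targets, 5 of the 9 tested did not overlap between the groups and were lower in the siPrp19 columns (*CCN1*, *CCN2*, *ANKRD1*, *CRIM1* and *AJUBA*), against 18.1% of all tested genes. None was higher without overlap, against 13.2%. Leaving out single libraries changed the calls. Without NCc, 4 of the targets passed, when 9.87% of all genes did, and without siPrp19a it was 2 (*CCN2* and *ANKRD1*), when 7.53% of all genes did. Without NCb it was 1 (*ANKRD1*, 2.44% of all genes), and without NCa, siPrp19b or siPrp19c it was 0 (1.92%, 1.97% and 1.84% of all genes). The log2 fold changes of the 4 moved little, from -0.43 to -0.30 for *CCN1*, from -0.58 to -0.51 for *CCN2*, from -0.93 to -0.77 for *ANKRD1* and from -0.60 to -0.42 for *CRIM1*. Scaling mattered as well. With quantile normalization, when 7.92% of all genes passed, 2 of the targets did, and with the same FPKM sum in each library, when 4.95% of all genes passed, it was again 2 (*CCN2* and *ANKRD1* both times).

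**Figure D4:**
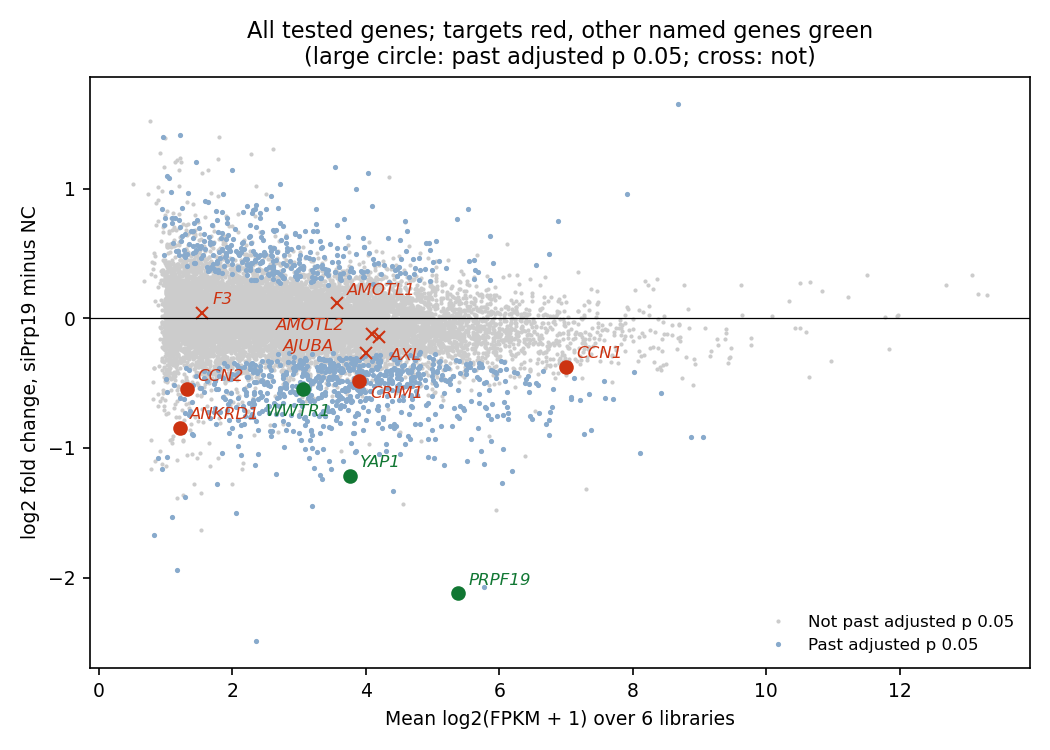
Log2 fold change (siPrp19 minus NC) against mean log2(FPKM + 1) over 6 libraries for the 13718 tested genes, with the targets in red and *YAP1*, *WWTR1* and *PRPF19* in green. *ANKRD1* and *CCN2* lie at the low end of expression, *CCN1* is the target with the highest level, and *YAP1* at -1.21 lies below all 9 targets.

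The targets were set beside the factors that drive them. *YAP1* (ENSG00000137693), which encodes YAP, was at 20.7, 20.9 and 17.5 FPKM in the NC columns and at 7.65, 7.67 and 8.42 FPKM in the siPrp19 columns, far apart. Its log2 fold change of -1.21 ± 0.09 (SE, adjusted p = 0.00182 by limma) was larger than that of any of the 9 targets on this scale, whereas with voom *ANKRD1* at -1.48 exceeded *YAP1* at -1.23. This order of sizes was not tested. *WWTR1*, which encodes TAZ, fell by 0.55 on the log2 scale (9.06 ± 0.319 to 5.91 ± 0.684 FPKM, SD, n = 3, adjusted p = 0.0146 by limma). Of the TEAD genes 0 of 4 passed by limma or voom, and *TEAD4* came closest (-0.30, adjusted p = 0.0929), with an unadjusted p below 0.05 by both. *TEAD1* was at -0.26 (interval -0.68 to 0.16), but 1 library decided this value, which was -0.47 without NCc (adjusted p = 0.0374 by limma) and -0.15 without NCb. *TEAD2* was at -0.06 (interval -0.21 to 0.09) and *TEAD3* at 0.03 (interval -0.14 to 0.20). *VGLL4*, a competitor of YAP for TEAD binding that is named here after its value was seen, fell by 0.57 (adjusted p = 0.00961 by limma), and did not pass without NCa or without siPrp19b. In the 4 libraries *YAP1* was at -1.15 (adjusted p = 0.0819 by limma and 0.00463 by voom), and by sample label at -0.32 (adjusted p = 1.00). *YAP1* and *WWTR1* overlap genes on the opposite strand.

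Other described targets of YAP and TAZ moved in both directions. Of 14 further genes of a YAP/TAZ signature, 12 were tested, 2 fell, 1 rose and 9 did not pass (25% called, against 7.94% of all tested genes), with a median log2 fold change of 0.01 against -0.02 over all genes. *CCDC80*, which encodes a matrix protein, was at 16.6, 16.9 and 15.4 FPKM in the NC columns and at 10.7, 10.0 and 9.52 FPKM in the siPrp19 columns (-0.64 ± 0.07, SE, adjusted p = 0.00565 by limma). *NT5E*, which encodes the surface enzyme CD73, was at 73.8 ± 4.19 and 46.4 ± 5.00 FPKM (SD, n = 3) and fell by 0.66 (adjusted p = 0.0111 by limma). With quantile normalization *NT5E* was at -0.53 and did not pass (adjusted p = 0.0593 by limma). *NUAK2*, which encodes a kinase of the AMPK family, rose from 6.07 ± 0.270 to 8.26 ± 0.188 FPKM (SD, n = 3), by 0.39 on the log2 scale (adjusted p = 0.0161 by limma), with all siPrp19 columns above all NC columns. Of those that did not pass by limma, *RBMS3* was at -0.29 and passed by voom (-0.44, adjusted p = 0.0371), and *DOCK5* was at 0.25, or 0.15 without NCc. *FOXF2* was listed at 0 in every library, and *LATS2*, at 0.573 to 1.17 FPKM, was below the limit for testing.

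Of 14 targets described outside this signature, 10 were tested, 3 fell and none rose (30% called, against 7.94% of all tested genes and 5.37% lower), with a median log2 fold change of -0.21 against -0.02. *BIRC5*, which encodes survivin, was at 62.8, 60.4 and 71.2 FPKM in the NC columns and at 28.8, 36.4 and 35.5 FPKM in the siPrp19 columns, without overlap. It fell from 64.8 ± 5.64 to 33.6 ± 4.16 FPKM (SD, n = 3, -0.93, adjusted p = 0.00668 by limma). *MYC*, a growth-promoting transcription factor, fell by 0.44 (adjusted p = 0.0141), and *FSTL1*, a secreted glycoprotein, by 0.38 (adjusted p = 0.0279), both by limma. *FSTL1* did not pass with voom (adjusted p = 0.05001), quantile normalization (-0.28, adjusted p = 0.122) or the same FPKM sum (adjusted p = 0.123). *THBS1*, a matrix glycoprotein, was at -0.33 (adjusted p = 0.0755), and at -0.41 without NCc (adjusted p = 0.0189 by limma). *GLI2*, a transcription factor of the Hedgehog pathway, was at 0.24 (adjusted p = 0.234), and at 0.13 without NCc. *EDN1*, *AREG*, *CAVIN2* and *FGF1* were too low to be tested, with *AREG* listed at 0. *BIRC5*, *MYC*, *CCND1* and *FGF1* were also genes that the study or an earlier look at these data had followed. *CCND1*, given for that reason, was at -0.23 and did not pass by limma (adjusted p = 0.121, unadjusted p = 0.0189). With voom it was at -0.16 (adjusted p = 0.285). Its values were 84.6, 82.0 and 74.4 FPKM in the NC columns and 69.0, 67.4 and 68.0 FPKM in the siPrp19 columns. The paper, which tested counts with DESeq2, reports a significant decrease of *CCND1* with Prp19 knockdown. In both lists together, 6 of 22 passed by column name (27.3%). These lists were also chosen with earlier results of these data known. In the 4 libraries 0 passed by limma, with 6 at an unadjusted p below 0.05, as were 12.3% of all genes, and 1 by voom (*BIRC5*), where 1.94% of all genes passed, and by sample label 0 passed by either, with 0 at an unadjusted p below 0.05.

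**Figure D5:**
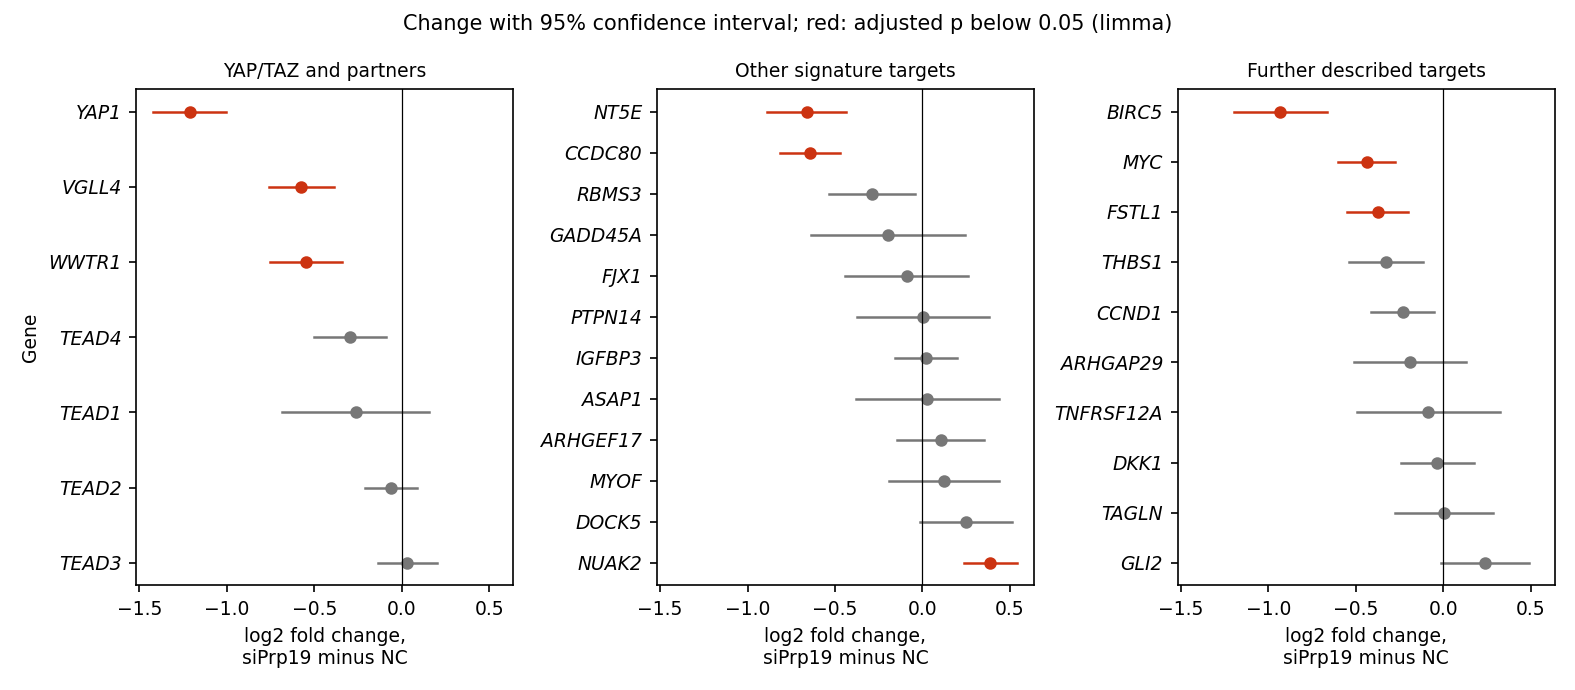
Log2 fold change (siPrp19 minus NC, by column name) with 95% confidence intervals for *YAP1*, *WWTR1* and their partners and for the tested genes of the lists of other targets; red marks an adjusted p below 0.05 by limma. *NUAK2* at 0.39 is the only red point above 0.

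Genes with profiles most like the targets were sought over the 6 libraries, by the root mean square difference of mean-centred log2(FPKM + 1). For *CCN1* they were *TUBB6*, a β-tubulin (0.0255), *RBM27*, an RNA-binding protein (0.0260), and *MSMO1*, an enzyme of cholesterol synthesis (0.0297). For *CCN2* they were *TMEM19*, a membrane protein (0.0268), *MMUT*, the mitochondrial methylmalonyl-CoA mutase (0.0376), and *DRAM1*, a lysosomal membrane protein (0.0448). None of the 6 is on the target lists used here.

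As Prp19 acts in splicing, the number of exons in each target is given as description. *CCN1* and *CCN2* are compact, with 5 exons in 3.20 kb each, and *ANKRD1* has 9 exons in 9.18 kb. *CRIM1*, with 17 exons in 195 kb, is the longest of the 10. The genes that did not pass ranged from *F3* with 6 exons to *AXL* with 20. The 11031 tested genes with a principal transcript had a median of 9 exons and 32.0 kb. Genes that fell thus lay on either side of these medians. The FPKM values sum over all exons of a gene and hold no information on the inclusion of single exons.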

How the data were processed

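Total RNA was extracted with TRIzol and made into libraries with a NEBNext Ultra kit. HISAT2 2.0.5, featureCounts 1.5.0-p3 and hg38 are named in the submitters' processing notes. The authors deposited FPKM values per gene and library and themselves tested counts with DESeq2. The paper names biological replicates without describing them. The labels do not say whether libraries came from separate cultures, so p-values measure the spread between these libraries. Exon lengths of GENCODE 29 gave whole reads for 100% of the values checked (tolerance 0.05). Recovered totals were 0.951 to 1.04 times the totals implied by the FPKM, so a small scaling by the authors is included.

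Of 58735 gene IDs, 58207 were named by a symbol table and the rest by GENCODE 29. Genes with a mean of at least 1 FPKM were kept, and log2(FPKM + 1) was fitted with limma 3.58.1 (R 4.3.3) with a trend of variance on the mean, and p-values were adjusted by Benjamini-Hochberg across the tested genes. The fits were tested on simulated data with independent libraries and 3-fold changes, larger than the changes of the called targets. That check does not cover smaller changes or the close pairs of libraries. Groups by column name came from the sample whose description equals that name. The 4-library and sample-label fits, a pseudocount of 0.1, no filter, 2 scalings, no trend, a replicate block, leaving out each library and voom were alternatives, with voom in the other 2 groupings added after seeing the data. Named were all members, *PRPF19*, *YAP1*, *WWTR1*, the TEAD genes, called genes of the other target lists, up to 4 others with the largest change, and 3 nearest profiles each for *CCN1* and *CCN2*. A gene of the list of other targets is not reported here and was left out of its counts. Members and lists were chosen with earlier results of these data known. Python 3.11.15, numpy 2.4.6, pandas 2.3.3 and matplotlib 3.10.9 were used.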

Additional observations from a re-analysis of the deposited data

How the results depend on the processing

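By column name 1089 genes passed (353 higher, 736 lower), with 4 of the 9 targets tested and 6 of the 22 other targets. These counts were 0, 0 and 0 by sample label by limma and by voom, 2, 0 and 0 in the 4 libraries by limma, and 266, 1 and 1 there by voom. Without a filter on low values (34468 genes tested) 512 genes and 0 targets passed, with the same FPKM sum 679 genes and 2 targets, and with quantile normalization 2 targets. Leaving out each library gave 253 to 1354 genes, 0 to 4 targets and 2 to 8 others. Without NCa, NCb, siPrp19b or siPrp19c the counts were 253 to 335 genes, 0 or 1 targets and 2 others (*CCDC80* and *BIRC5*), and *WWTR1* did not pass in any of these 4 fits. The split of all calls moved with scaling, from 32.4% higher to 46.1% with quantile normalization and 54.5% with voom (1370 genes). The column numbers did not pair the libraries (r of 0.13, -0.05 and 0.20 for a, b and c), and not every library correlated best with its own number. With a replicate block 928 genes and 2 targets (*ANKRD1* and *CRIM1*) passed. Directions of small changes turned. Leaving out each library took *AMOTL1* from -0.0051 (without NCc) to 0.18, *F3* from -0.068 (without siPrp19c) to 0.16, with -0.027 without NCb, and *TEAD3* from -0.00058 (without NCb) to 0.084. By sample label, *TEAD1* was at 0.061 (limma) and 0.093 (voom), *TEAD2* at 0.014 and 0.045 and *TEAD3* at -0.036 and -0.0044. *TEAD2* was also at 0.00996 with quantile normalization, 0.014 with voom and 0.044 with voom in the 4 libraries, where *TEAD3* was at -0.0026 by limma. The causes were not tested. The longer TEAD letters ACATTCC were in 3.46% of all promoter windows, and GGAATG was in 11.2% of those of tested genes. Of 496 recomputed values, 345 kept direction and side of the threshold or size, 101 lost the call, 3 gained it, 14 turned and 33 counts or shares moved. *CCN2*, *ANKRD1*, *F3* and *TGFB2* are limited by depth, at no more than 149 reads per library.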
